A study of Homo sapiens with 22 samples.

Results

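The mitochondrial ribosomal protein genes were taken as every gene symbol made of MRPL or MRPS, a number and at most 1 letter from A to C. Of the 28063 gene symbols in the count files, 78 met this rule, 49 of them named for the large subunit (MRPL) and 29 for the small subunit (MRPS). A further 5 symbols that begin alike, such as the antisense transcript MRPL23-AS1 and the pseudogene MRPL42P5, did not meet it and were not counted. MRPS24 had at most 1 read in any library and could not be tested, which left 77 members in the tests. The 78 genes lie on 21 chromosomes.

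Mitochondria carry their own ribosome, which makes the few membrane proteins of the respiratory chain that the mitochondrial genome still encodes. Its ribosomal RNAs come from the mitochondrial genome, but every one of its proteins is encoded in the nucleus, made on cytosolic ribosomes and imported. Some of these proteins descend from bacterial ribosomal proteins and carry the bacterial number. Many others were acquired later and carry higher numbers, but the number is not a sure guide to descent. Myeloid leukaemia cells depend on mitochondrial translation more than many normal blood cells do. Symbols do not always follow structure: the products of MRPS30 and MRPS18A sit in the large subunit, that of MRPS36 is now placed with the 2-oxoglutarate dehydrogenase complex, and MRPL58 is a peptidyl-tRNA hydrolase built into the ribosome.

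RNA had been sequenced from 3 established human acute myeloid leukaemia lines that carry KMT2A fusions, in 11 groups of 2 libraries. The lines were MOLM-13, MV-4-11 and THP-1, and each was given either BRM014 at 1 µM for 24 h or 72 h, or the solvent DMSO. BRM014 blocks SMARCA4 and SMARCA2, the ATPases that power SWI/SNF complexes to move nucleosomes. THP-1 alone was also given PMA, which turns monocytic cells into macrophage-like ones, at 10 nM for 48 h followed by 24 h of rest, and DB2313, which blocks PU.1, a master factor of myeloid cells, at 3 µM for 72 h. The culture time of the DMSO libraries is not labelled, so 1 DMSO group per line served both times, and effects of time in culture cannot be told apart from those of BRM014. Separate cultures are not mentioned for the 2 replicates of a group, so p-values measure the spread between libraries, which may be technical.

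The libraries held 15893489 to 21565666 reads in genes. In every library the 8 myeloid markers examined were present, among them PTPRC (82.5 CPM or more, CPM being a gene's reads relative to all gene reads of its library, on a scale common to all libraries) and MPO (1.22 CPM or more). T cell and erythroid markers stayed at or under 1.90 CPM, a limit that lies above the lowest MPO value. A few markers of other cell types moved with treatment in THP-1. COL1A1 had 10.6 and 10.0 CPM with BRM014 at 24 h, 114 and 122 CPM at 72 h, 24.3 and 29.7 CPM with DB2313, and 0.501 and 0.742 CPM with DMSO. CDH1 had 35.7 and 30.3 CPM with BRM014 at 72 h and none with DMSO. Other markers of fibroblasts and epithelial cells, COL1A2, DCN, EPCAM and KRT5, stayed at or under 0.64 CPM in every library. The 2 PMA libraries stood apart from one another, differing by 30.4 times sampling noise (chi-square over its degrees of freedom), against 3.14 to 10.7 times for the replicates of the other groups. All of these are bulk measurements, in which fewer cells of a type and less RNA per cell cannot be told apart.

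Promoter windows of 300 bases, from 250 before to 50 after the RefSeq start, were found for 69 of the 78 members. The 4 windows printed here belong to the 2 members with the lowest and the 2 with the highest log2 fold change after 72 h of BRM014, the comparison on which most of the results turn. They are 5′ to 3′ on the strand of the gene, from RefSeq on GRCh38.p14, with matches to any of 4 short motifs in capitals. MRPL17 spans chr11:6683291-6683590 on the minus strand, MRPL12 chr17:81703117-81703416 on the plus strand, MRPL34 chr19:17292323-17292622 on the plus strand and MRPL41 chr9:137551629-137551928 on the plus strand.
MRPL17: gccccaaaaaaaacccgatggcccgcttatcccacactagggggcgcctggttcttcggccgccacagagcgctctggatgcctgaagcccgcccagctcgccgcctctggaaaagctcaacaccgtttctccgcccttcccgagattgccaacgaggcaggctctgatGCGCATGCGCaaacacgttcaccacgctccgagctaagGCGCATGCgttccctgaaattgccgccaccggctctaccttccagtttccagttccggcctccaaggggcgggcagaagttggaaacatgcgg
MRPL12: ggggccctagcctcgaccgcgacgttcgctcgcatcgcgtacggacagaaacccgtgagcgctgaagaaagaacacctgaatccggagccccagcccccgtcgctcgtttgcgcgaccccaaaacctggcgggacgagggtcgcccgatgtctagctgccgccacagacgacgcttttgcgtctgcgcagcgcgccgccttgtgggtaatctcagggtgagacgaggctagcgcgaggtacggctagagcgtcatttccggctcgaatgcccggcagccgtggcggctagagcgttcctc
MRPL34: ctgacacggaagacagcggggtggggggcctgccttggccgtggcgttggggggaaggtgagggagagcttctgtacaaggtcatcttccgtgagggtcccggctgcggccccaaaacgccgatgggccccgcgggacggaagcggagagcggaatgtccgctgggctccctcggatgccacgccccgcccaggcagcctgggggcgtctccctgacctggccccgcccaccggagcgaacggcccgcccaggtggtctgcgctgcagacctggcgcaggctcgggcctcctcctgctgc
MRPL41: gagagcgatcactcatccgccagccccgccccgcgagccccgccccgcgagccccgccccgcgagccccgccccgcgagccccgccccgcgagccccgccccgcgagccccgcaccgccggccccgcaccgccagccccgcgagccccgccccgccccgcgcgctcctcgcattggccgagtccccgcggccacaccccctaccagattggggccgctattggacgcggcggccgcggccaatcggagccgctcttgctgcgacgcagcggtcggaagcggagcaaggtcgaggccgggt

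The motifs were GCATGCGC, the core recognised by NRF1, a regulator of nuclear genes for mitochondria, CCGGAAG for ETS factors such as GABPA, the E-box CACGTG bound by MYC and related factors, and AAGATGGCG for YY1. Both strands were searched, and an ETS and a YY1 match can share the letters AAG. The MRPL17 window held 3 NRF1 matches, of which 2 overlap, and the MRPL12, MRPL34 and MRPL41 windows held none of the 4 motifs. These windows are rich in G and C, at 62% in MRPL17, 65.7% in MRPL12, 72.3% in MRPL34 and 80.7% in MRPL41.

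Across the members, ETS matches were the most frequent, in 29 of the 69 windows (42%), against 17.4% of the 12176 windows of genes tested and 10.3% of all 35116 windows. YY1 matches stood in 13 member windows (18.8%), against 3.48% of tested genes and 1.75% of all windows. NRF1 matches stood in 6 (8.7%, against 4.95% and 3.05%) and E-boxes also in 6 (8.7%, against 9.66% and 7.26%). The members with an ETS match had a median log2 fold change of -0.53 after 72 h of BRM014, and those without it -0.76. With and without a YY1 match the medians were -0.76 and -0.59, with and without an NRF1 match -0.72 and -0.59, and with and without an E-box -0.54 and -0.60. A match describes the letters of the window and is not evidence of binding.

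**Figure D1:**
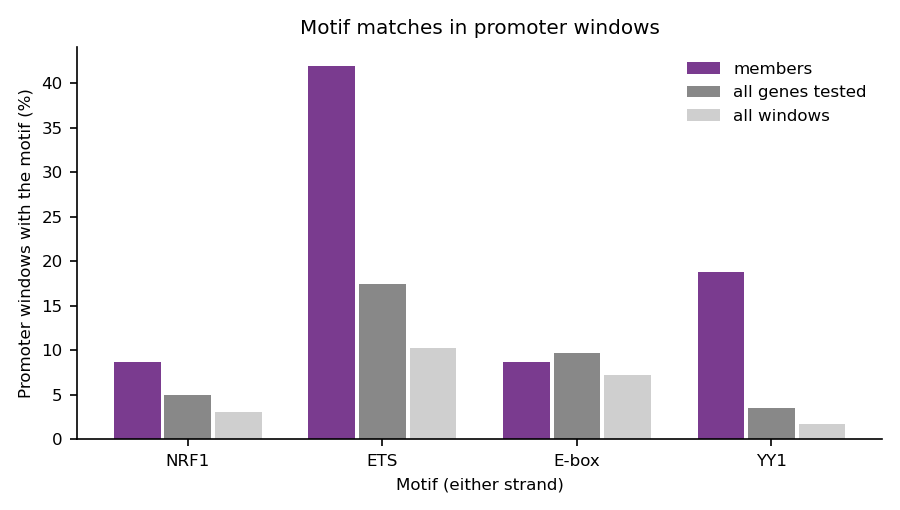
Share of promoter windows (per cent, vertical axis) that hold each of 4 motifs on either strand, for the 69 members with a window, the 12176 genes tested and all 35116 windows. ETS and YY1 matches stand in 42% and 18.8% of member windows, against 17.4% and 3.48% of the windows of genes tested.

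Levels of the members differed widely from gene to gene. Per kilobase of exon, the highest means over the 11 groups were those of MRPL33 (120 CPM per kilobase), MRPL18 (118) and MRPL37 (92.5), all of the large subunit. The lowest tested members were MRPS18B (1.36 CPM per kilobase) and MRPL42 (3.30), and the value of MRPL42 rests on annotated exons that add up to 16006 bases. MRPL33 shares its strand with BABAM2, so its count is uncertain. MRPS24, at 0 to 0.0626 CPM, lies within a readthrough gene, URGCP-MRPS24, on the same strand. In all, 35 members overlap another counted gene, 10 of them on the same strand and 28 on the other, and the strand setting of the counting is not given, so their values are less certain than those of the other 43.

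Before treatment the 3 lines already differed in these transcripts. In the DMSO libraries the levels of 70 of 77 members (90.9%) differed between lines, against 78.9% of all genes tested. Summed over the members, MOLM-13 had 5516 and 5667 CPM, MV-4-11 cells 5338 and 5410 CPM, and THP-1 cells 4185 and 4156 CPM. MOLM-13 and MV-4-11 lay close together, and both THP-1 libraries were below all 4 others. Single members did not all follow that order. MRPL37, a large-subunit protein particular to mitochondria, had 299 and 298 CPM in THP-1, 143 and 157 CPM in MOLM-13 and 165 and 162 CPM in MV-4-11. MRPL10, a protein of the stalk where translation factors dock, was highest in MV-4-11, at 100 and 108 CPM, with 53.1 and 54.9 CPM in MOLM-13 and 30.2 CPM in both THP-1 libraries. MRPL17 did not pass the test between lines (adjusted p = 0.176).

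The BRM014 libraries were set against the DMSO libraries of their own line. In all 3 lines the summed level of the members was lower with BRM014 at both times. MOLM-13 had 4212 and 4116 CPM at 24 h, 3215 and 3310 CPM at 72 h, and 5516 and 5667 CPM with DMSO. In MV-4-11 the sums were 4822 and 4731 CPM at 24 h, 3905 and 3935 CPM at 72 h, and 5338 and 5410 CPM with DMSO. THP-1 had 3391 and 3290 CPM at 24 h, 2976 and 3138 CPM at 72 h, and 4185 and 4156 CPM with DMSO. In each line the treated libraries lay below both DMSO libraries, the 72 h libraries lay below the 24 h ones, and no groups overlapped. The members took up 0.247% to 0.567% of gene reads over all 22 libraries. The share of reads outside genes also differed. It was 18.2% and 18.4% in MOLM-13 after 72 h, against 13.2% and 12.4% with DMSO, and 18.4% to 19.2% in the THP-1 BRM014 libraries, against 16.5% and 15.8%. In MV-4-11 it was lower with BRM014, at 13.1% and 13.5% after 72 h, against 14.3% and 13.8%. Whether this share bears on the summed levels was not tested. Of the 3 fibroblast markers, COL1A1 made up nearly all of a sum that reached 7.04 and 8.31 CPM in MV-4-11 and 2.72 and 2.98 CPM in MOLM-13 at 72 h, and its part in the result was not tested.

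**Figure D2:**
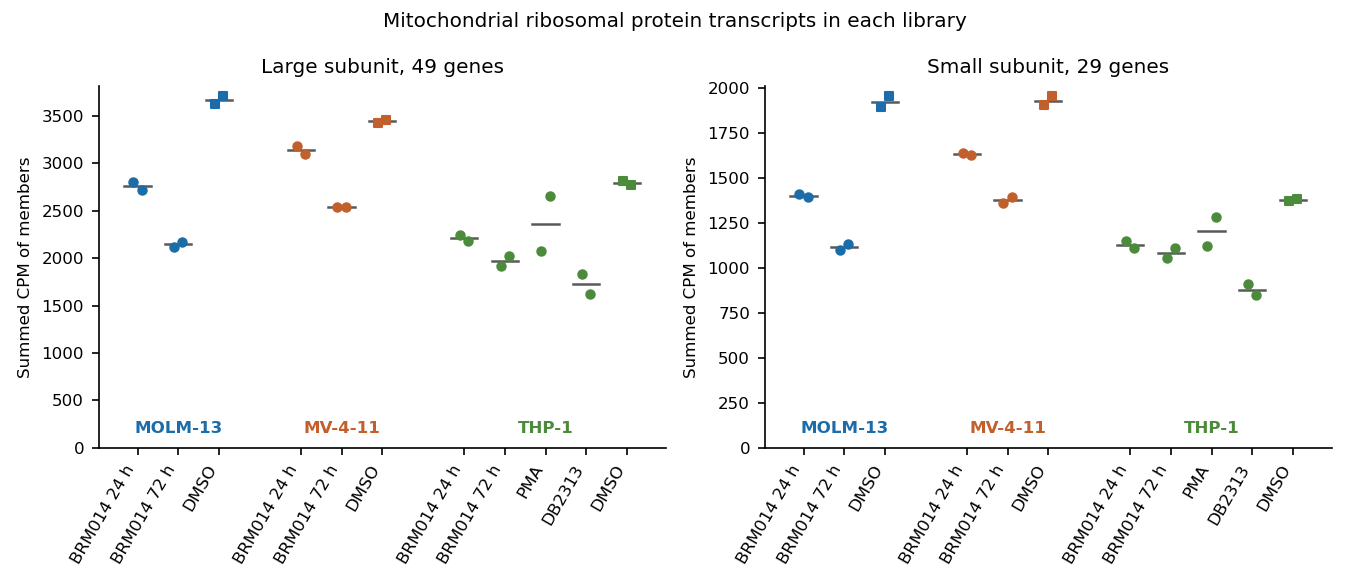
Summed CPM of the 49 members named for the large subunit (MRPL, left) and the 29 named for the small subunit (MRPS, right) in each library, from 0. Circles are treated libraries, squares DMSO libraries, bars the mean of the 2 libraries, and colours the 3 lines; in every line both BRM014 groups lie under DMSO, and in THP-1 the DB2313 libraries are the lowest while the 2 PMA libraries differ from each other.

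In the mean of the 3 lines, 57 of 77 members fell after 24 h of BRM014 (74.0%, against 27.1% of all genes tested) and 6 rose (7.79%, against 28.9%), by edgeR's quasi-likelihood test at an adjusted p under 0.05. After 72 h, 66 fell (85.7%, against 30.4%) and 4 rose (5.19%, against 34.9%). The median log2 fold change of the members was -0.39 at 24 h and -0.59 at 72 h, beside 0.03 and 0.07 over all genes tested. Both symbol groups took part: at 72 h 42 of 49 MRPL and 24 of 28 MRPS members fell, with medians of -0.59 and -0.64. The groups follow the symbol and not the structure, so MRPS30, MRPS18A and MRPS36 are counted as MRPS. Of members with numbers shared with bacteria 39 of 44 fell (median -0.59), of those with higher numbers 27 of 33 (median -0.69), and 40 of the 43 members that overlap no other gene fell. Scaling by library size alone in place of TMM moved log2 fold changes up, by a median over genes of 0.126 in MOLM-13 at 24 h, 0.191 in MOLM-13 at 72 h and 0.112 over the lines together at 72 h, so log2 fold changes under these sizes depend on the scaling.

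**Figure D3:**
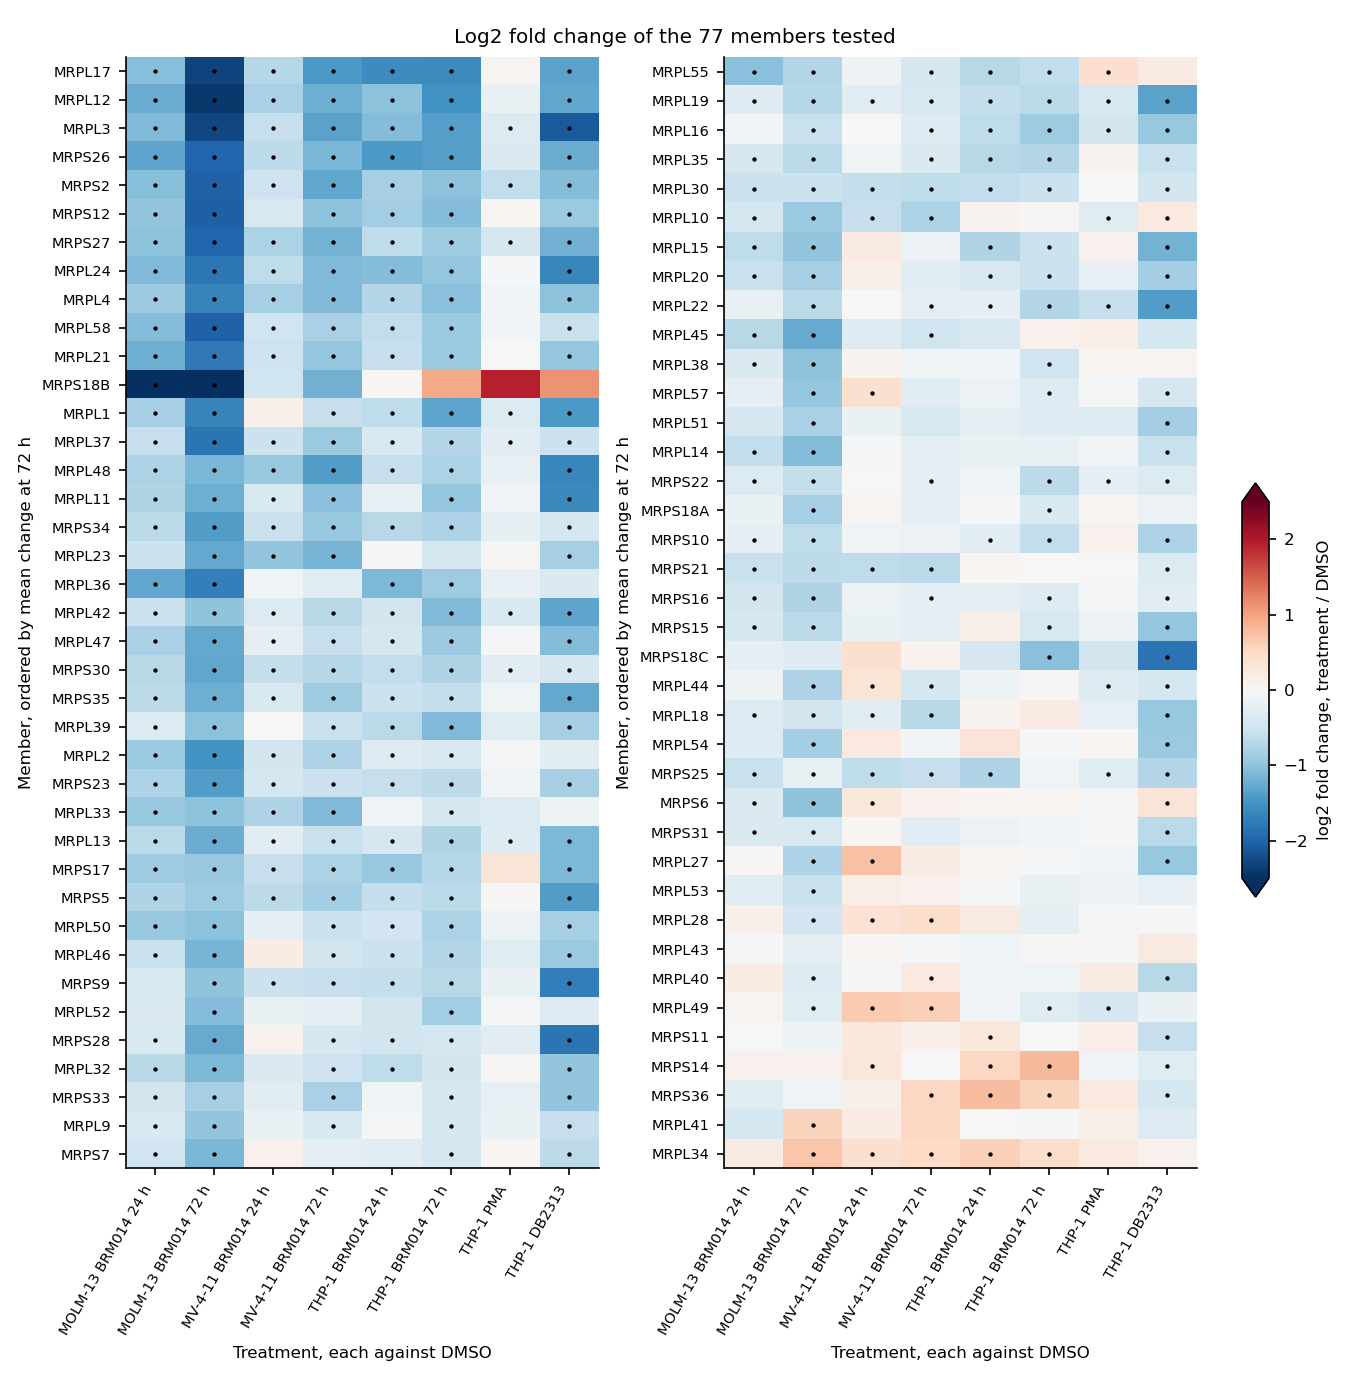
Log2 fold change against DMSO (colour, blue lower and red higher, saturating at 2.5) of the 77 members tested, in rows ordered by their mean change after 72 h of BRM014, for 8 line and treatment pairs in columns. A dot marks an adjusted p under 0.05; blue with dots fills most of the left block, MRPL34 at the bottom right is red throughout, and the PMA column holds 17 dots.

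The count of members that fell was largest in MOLM-13. There 55 of 77 fell at 24 h (71.4%, against 23.5% of all genes tested) and none rose (against 22.7%), a count of 0 that DESeq2 and unadjusted edgeR p-values under 0.05 also gave. With library size alone 44 fell and 4 rose. At 72 h in MOLM-13, 70 fell (90.9%, against 29.4%) and 2 rose (against 30.3%), MRPL34 and MRPL41. The MRPL41 call in MOLM-13 (0.56, adjusted p = 0.038) was lost with DESeq2 (0.55, adjusted p = 0.0782) and without BRM014 72 h replicate 1 (0.52, adjusted p = 0.131), BRM014 72 h replicate 2 (0.60, adjusted p = 0.0781) or DMSO replicate 1 (0.34, adjusted p = 0.314). In MV-4-11, 32 fell (41.6%, against 22.4%) and 8 rose (10.4%, against 23.6%) at 24 h, and 49 fell (63.6%, against 26.1%) and 5 rose (against 28.4%) at 72 h. The number called higher in MV-4-11 at 24 h was 4 without BRM014 24 h replicate 1 or DMSO replicate 1 and 5 without DMSO replicate 2, and at 72 h it was 3 without BRM014 72 h replicate 1, BRM014 72 h replicate 2 or DMSO replicate 2. In THP-1, 41 fell (53.2%, against 24.1%) and 4 rose (against 25.9%) at 24 h, and 54 fell (70.1%, against 28.0%) and 3 rose (against 30.9%) at 72 h. The median log2 fold changes at 24 h and 72 h were -0.53 and -0.996 for MOLM-13. For MV-4-11 they were -0.18 and -0.49, and for THP-1 -0.41 and -0.55.

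Since the lines have separate controls, their calls could be compared. At 24 h 25 members (32.5%) fell in all 3 lines, against 9.49% of all genes tested, and at 72 h 42 members (54.5%) did, against 14.5%. MRPL34 alone rose in all 3 lines at 72 h, against 13.5% of all genes tested. At 24 h no member did, against 9.12%, also with DESeq2 or unadjusted p-values. At 72 h 2 members, MRPL43 and MRPS11, passed the test in no line, against 18.1% of all genes. MRPS11 had a log2 fold change of 0.00 ± 0.07 and MRPL43 -0.07 ± 0.09 in the mean of the lines (adjusted p = 1 and 0.531).

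MRPL17, which lines the exit tunnel region of the large subunit, had the lowest log2 fold change at 72 h. In MOLM-13 it had 25.1 and 26.5 CPM at 24 h, 10.8 and 12.1 CPM at 72 h, and 46.2 and 52.9 CPM with DMSO. In MV-4-11 it had 34.5 and 38.0 CPM at 24 h, 21.1 and 22.6 CPM at 72 h, and 51.3 and 62.1 CPM with DMSO. In THP-1 the values were 16.3 and 16.7 CPM at 24 h, 16.3 and 17.3 CPM at 72 h, and 47.3 and 48.0 CPM with DMSO. All treated libraries were below all DMSO libraries of their line. The 2 times overlapped only in THP-1, where MRPL17 was already at its 72 h level after 24 h. In the mean of the lines it fell by 1.12 ± 0.08 on the log2 scale at 24 h (adjusted p = 2.52e-10) and by 1.78 ± 0.09 at 72 h (adjusted p = 1.29e-13), to 0.291 of the DMSO level.

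MRPL12, the mitochondrial form of the stalk protein L7/L12, which also binds the mitochondrial RNA polymerase, came next. It had 71.1 and 70.1 CPM at 24 h, 30.5 and 35.6 CPM at 72 h, and 147 and 159 CPM with DMSO in MOLM-13. MV-4-11 had 115 and 110 CPM at 24 h, 80.3 and 86.3 CPM at 72 h, and 180 and 193 CPM with DMSO. In THP-1 it had 62.2 and 51.8 CPM at 24 h, 37.5 and 46.2 CPM at 72 h, and 111 and 114 CPM with DMSO. Within each line the 3 groups did not overlap. MRPL12 fell by 1.02 ± 0.09 at 24 h (adjusted p = 5.33e-09) and by 1.71 ± 0.09 at 72 h (adjusted p = 1.21e-12) on the log2 scale.

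MRPL3, a core protein near the peptidyl transferase centre, had 87.7 and 84.9 CPM at 24 h, 40.8 and 39.9 CPM at 72 h, and 181 and 159 CPM with DMSO in MOLM-13. In MV-4-11 it had 119 and 116 CPM, 68.8 and 68.7 CPM, and 167 and 168 CPM in the same groups. In THP-1 it had 103 and 105 CPM, 90.3 and 83.3 CPM, and 216 and 208 CPM. The gene spans chr3:131462212-131502983 on the minus strand (GENCODE 29, GRCh38). No groups overlapped within a line, and the 24 h to 72 h step was narrowest in THP-1. MRPL3 fell by 0.92 ± 0.04 at 24 h (adjusted p = 4.67e-14) and by 1.66 ± 0.04 at 72 h (adjusted p = 2.41e-18).

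Of the small subunit, MRPS26, a protein particular to mitochondria, had 29.7 and 33.3 CPM at 24 h, 21.7 and 19.8 CPM at 72 h, and 67.8 and 76.7 CPM with DMSO in MOLM-13. In THP-1, where its level was lower, it had 6.74 and 5.94 CPM at 24 h, 7.57 and 5.89 CPM at 72 h, and 15.0 and 18.1 CPM with DMSO. MRPS26 fell by 1.14 ± 0.09 at 24 h (adjusted p = 3.85e-10) and by 1.51 ± 0.09 at 72 h (adjusted p = 2.68e-12) in the mean of the lines. As with MRPL17, its 24 h and 72 h libraries overlapped in THP-1 and were apart in MOLM-13. MRPS2, a core protein of the small subunit, fell by 1.45 ± 0.10 at 72 h (adjusted p = 6.49e-11), and MRPS12, the counterpart of the bacterial decoding-site protein S12, by 1.38 ± 0.11 (adjusted p = 3.87e-10). In MOLM-13, MRPS2 had 8.4997 and 8.46 CPM at 72 h, against 27.3 and 33.3 CPM with DMSO, and MRPS12 had 36.1 and 34.2 CPM, against 113 and 138 CPM.

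A few members went the other way. MRPL34, a small core protein of the large subunit, had 101 and 104 CPM at 24 h, 150 and 152 CPM at 72 h, and 73.1 and 90.8 CPM with DMSO in MOLM-13. In MV-4-11 it had 62.8 and 55.7 CPM at 24 h, 63.6 and 61.9 CPM at 72 h, and 41.96 and 42.9 CPM with DMSO. In THP-1 it had 38.0 and 38.2 CPM at 24 h, 31.6 and 38.6 CPM at 72 h, and 22.3 and 26.4 CPM with DMSO. All treated libraries exceeded the DMSO libraries of their line. MRPL34 rose by 0.40 ± 0.08 at 24 h (adjusted p = 0.000258) and 0.54 ± 0.08 at 72 h (adjusted p = 5.51e-06) in the mean of the lines. Its call in THP-1 alone at 72 h (0.43 ± 0.15, adjusted p = 0.017) was lost without BRM014 72 h replicate 2 (0.29, adjusted p = 0.19) and without DMSO replicate 1 (0.32, adjusted p = 0.157). ABHD8 overlaps MRPL34 (chr19:17292609-17306843 on the plus strand) from the opposite strand.

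MRPS14, a core protein of the small subunit, rose by 0.30 ± 0.05 at 24 h (adjusted p = 1.51e-05) and 0.31 ± 0.05 at 72 h (adjusted p = 7.77e-06). THP-1 had 70.0 and 65.7 CPM at 24 h, 85.2 and 85.3 CPM at 72 h, and 43.2 and 48.4 CPM with DMSO. In MOLM-13 at 72 h it had 38.2 and 40.0 CPM, against 32.1 and 31.1 CPM with DMSO, and its log2 fold change of 0.12 ± 0.08 did not pass the test (adjusted p = 0.254). The effect on MRPS14 differed between lines by the test of that difference at both times. The gene spans chr1:175010789-175023425 on the minus strand, and CACYBP overlaps it on the other strand.

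MRPS36 rose at 72 h by 0.32 ± 0.09 (adjusted p = 0.00383). It had 13.0 and 11.2 CPM at 72 h in THP-1, against 7.64 and 7.82 CPM with DMSO, and 22.5 and 23.4 CPM in MOLM-13, against 22.2 and 20.6 CPM. Its libraries did not overlap in either line, but after TMM scaling MOLM-13 was at -0.09. MRPL41, a large-subunit protein particular to mitochondria, was at 0.34 ± 0.13 (adjusted p = 0.0264). It had 102 and 96.2 CPM at 72 h in MOLM-13, against 50.1 and 67.4 CPM with DMSO, while in THP-1 it had 54.2 and 62.4 CPM, against 56.9 and 56.6 CPM, and these overlap. The MRPL41 call was lost with DESeq2 (0.34, adjusted p = 0.0533) and without any 1 of 5 libraries: BRM014 72 h replicate 1 or DMSO replicate 1 of MOLM-13, BRM014 72 h replicate 2 or DMSO replicate 2 of MV-4-11, and BRM014 72 h replicate 2 of THP-1 (adjusted p = 0.0542 to 0.0944).

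At 24 h the other members that rose in the mean of the lines were MRPL27 (0.27 ± 0.07, adjusted p = 0.00211), MRPL28 (0.24 ± 0.08, adjusted p = 0.017), MRPL49 (0.22 ± 0.05, adjusted p = 0.000462) and MRPS11 (0.19 ± 0.07, adjusted p = 0.0196). MRPL27, a core protein near the peptidyl transferase centre, had 102 and 104 CPM at 24 h in MV-4-11, against 58.5 and 59.7 CPM with DMSO. In THP-1 it had 34.5 and 34.0 CPM, against 31.9 and 31.6 CPM, and at 72 h its mean over the lines fell by 0.21 ± 0.07 (adjusted p = 0.0127), a call lost with library size alone (-0.10, adjusted p = 0.206) and without THP-1 BRM014 72 h replicate 1 (-0.17, adjusted p = 0.0551). The MRPL28 call at 24 h was lost without MOLM-13 DMSO replicate 1 (0.21, adjusted p = 0.053). The MRPS11 call was lost without any 1 of 5 libraries: BRM014 24 h replicate 1 of MOLM-13, BRM014 24 h replicate 2 or DMSO replicate 1 of MV-4-11, and BRM014 24 h replicate 1 or DMSO replicate 1 of THP-1 (adjusted p = 0.0527 to 0.0704).

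**Figure D4:**
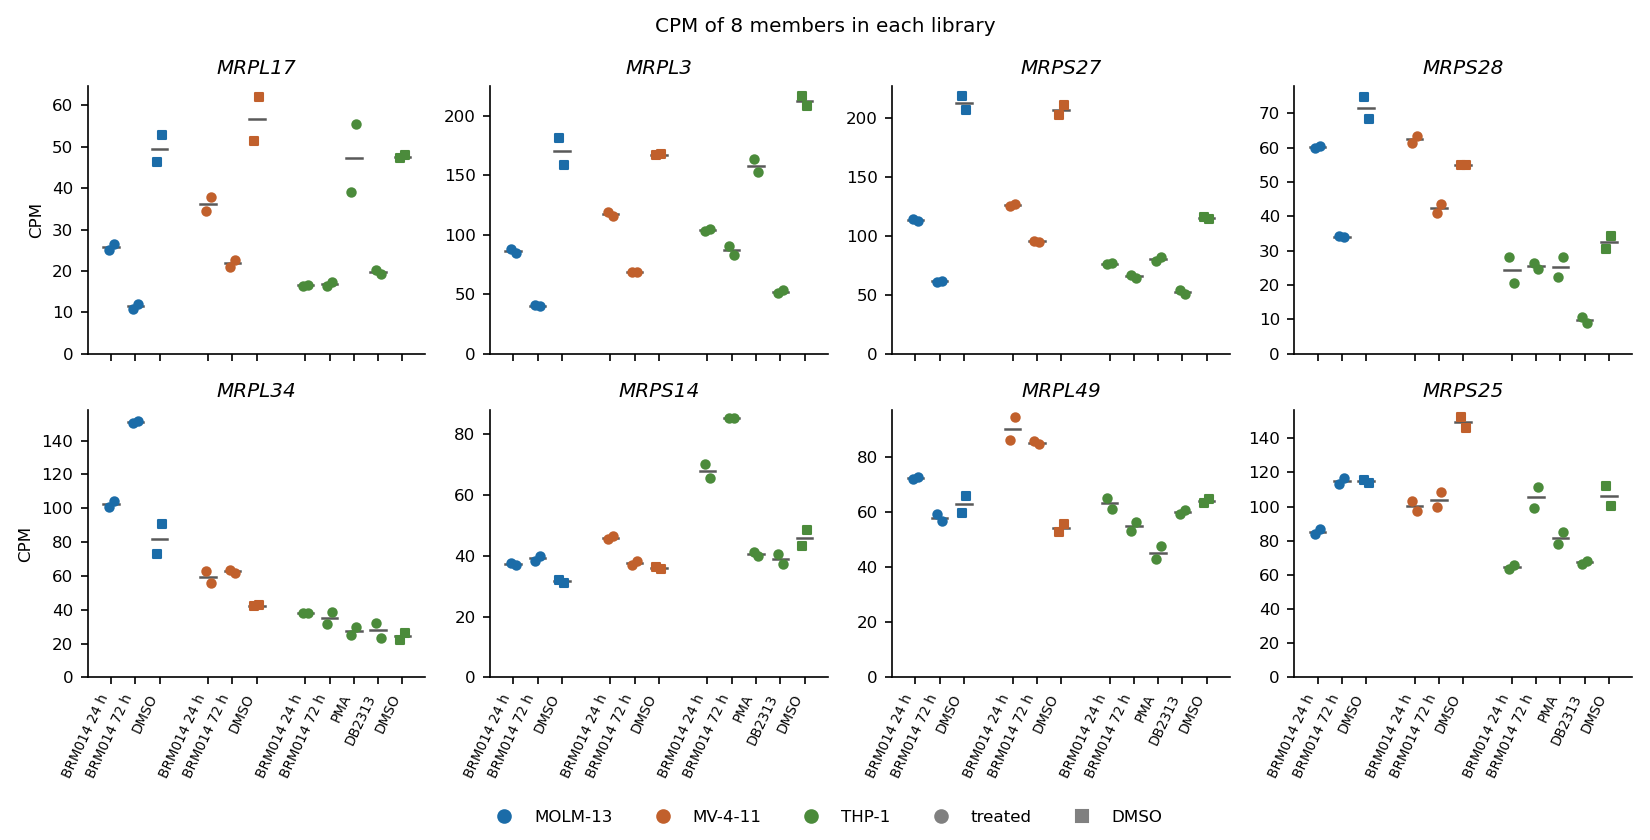
CPM (vertical axis, from 0) of 8 members in each library, with groups along the horizontal axis, the mean of each group as a bar, circles for treated and squares for DMSO libraries. MRPL17, MRPL3 and MRPS27 lie under DMSO with BRM014 in all lines, MRPL34 lies above it, MRPL49 lies above it in MV-4-11, MRPS25 is lower at 24 h than at 72 h in MOLM-13 and THP-1, and MRPS28 is lowest in THP-1 with DB2313.

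Between the times of BRM014 the median change of the members was downward in each line. In MOLM-13, 52 of 77 were lower at 72 h than at 24 h (67.5%, against 22.7% of all genes tested) and 3 were higher (against 20.8%), with a median of -0.50. In MV-4-11, 38 were lower (49.4%, against 16.9%) and 1 higher (against 18.6%), with a median of -0.29. In THP-1, 21 were lower (27.3%, against 16.5%) and 2 higher (against 16.2%), with a median of -0.15. Leaving out any 1 library gave 18 to 23 calls in MV-4-11 in place of 39, and 14 to 19 in THP-1 in place of 23. MRPL1, a core protein of the large subunit, was lower at 72 h than at 24 h by 0.84 ± 0.12 in MOLM-13, 0.71 ± 0.12 in MV-4-11 and 0.69 ± 0.12 in THP-1.

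MRPS25, singled out after its values were seen, went the other way between the times. It is a small-subunit protein particular to mitochondria. It had 113 and 117 CPM at 72 h and 84.0 and 86.8 CPM at 24 h in MOLM-13, with 116 and 114 CPM for DMSO. In THP-1 it had 99.4 and 112 CPM at 72 h and 63.5 and 65.7 CPM at 24 h, with 112 and 101 CPM for DMSO. The 72 h libraries were above the 24 h ones in both lines, by 0.36 ± 0.08 (adjusted p = 0.000765) in MOLM-13 and 0.67 ± 0.08 (adjusted p = 2.42e-06) in THP-1. In CPM they overlapped the DMSO libraries. By the edgeR test MRPS25 was lower than with DMSO at 72 h in MOLM-13 (-0.19 ± 0.08, adjusted p = 0.0403), a size that depends on the scaling. In the mean of the lines it was at -0.29 ± 0.04 (adjusted p = 9.06e-06), but it was not called lower in all 3 lines. In MV-4-11 it had 99.5 and 109 CPM at 72 h and 103 and 97.6 CPM at 24 h, with 152 and 146 CPM for DMSO, and stayed low at both times.

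The size of the BRM014 effect differed between lines, by an F test of the difference, for 34 of 77 members at 24 h (44.2%, against 43.5% of all genes tested) and for 59 at 72 h (76.6%, against 52.9%). At 24 h the share was thus that of genes in general. MRPL15, a core protein of the large subunit, had the smallest adjusted p at 24 h (6.97e-05). It had 46.9 and 46.4 CPM in THP-1, against 76.9 and 74.6 CPM with DMSO, and 107 and 90.2 CPM in MOLM-13, against 142 and 140 CPM. In MV-4-11 it had 100 and 97.5 CPM, against 80.1 and 82.5 CPM, a log2 fold change of 0.21 ± 0.11 that did not pass the test (adjusted p = 0.126). MRPL1 likewise fell in MOLM-13 (-0.83 ± 0.11) and THP-1 (-0.63 ± 0.12) and was at 0.14 ± 0.11 in MV-4-11 (adjusted p = 0.365), with an adjusted p for the difference of 0.00014. MRPL3 fell in all 3 lines, by 1.10 ± 0.07 in MOLM-13, 0.58 ± 0.07 in MV-4-11 and 1.07 ± 0.07 in THP-1, and its effect differed between them at 24 h (adjusted p = 0.000184) and at 72 h (adjusted p = 1.12e-07).

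At 72 h the smallest adjusted p for the difference between lines was that of MRPS27 (2.68e-08), a small-subunit protein with pentatricopeptide repeats, which bind RNA. The gene spans chr5:72219409-72320646 on the minus strand and overlaps PTCD2 on the other strand. MRPS27 had 61.2 and 61.6 CPM in MOLM-13, against 219 and 207 CPM with DMSO, 96.1 and 94.7 CPM in MV-4-11, against 203 and 212 CPM, and 66.5 and 64.7 CPM in THP-1, against 116 and 114 CPM. It fell by 1.99 ± 0.07, 1.18 ± 0.07 and 0.89 ± 0.07 in MOLM-13, MV-4-11 and THP-1. MRPL37 fell in the same order, by 1.83 ± 0.10, 0.92 ± 0.10 and 0.73 ± 0.09 (adjusted p for the difference = 2.38e-06). At 72 h 3 members (3.9%) had opposite calls in different lines, against 9.29% of all genes tested: MRPL28, MRPL40 and MRPL49.

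MRPL49 (adjusted p for the difference = 0.000103 at 24 h and 1.82e-06 at 72 h), a large-subunit protein, rose in MV-4-11, where it had 86.1 and 94.7 CPM at 24 h, 85.9 and 84.6 CPM at 72 h, and 52.8 and 55.8 CPM with DMSO. In THP-1 it had 53.3 and 56.7 CPM at 72 h, against 63.3 and 64.7 CPM, and fell by 0.31 ± 0.08 (adjusted p = 0.00419). In MOLM-13 it had 59.2 and 56.8 CPM at 72 h, against 59.8 and 66.1 CPM, and the call there (-0.31 ± 0.08, adjusted p = 0.0034) was lost with library size alone (-0.12, adjusted p = 0.224) and without DMSO replicate 2 (-0.22, adjusted p = 0.0714). The gene spans chr11:65122183-65127371 on the plus strand, and FAU and SYVN1 overlap it. The opposite calls of MRPL28 and MRPL40 were less stable. Library size alone ended both MOLM-13 calls at 72 h (MRPL28 -0.28, adjusted p = 0.0726, and MRPL40 -0.16, adjusted p = 0.187). MRPL28 also lost its call without BRM014 72 h replicate 1 or DMSO replicate 2 in MOLM-13 (adjusted p = 0.0626 and 0.0726), and without the same 2 libraries in MV-4-11 (adjusted p = 0.069 and 0.0731). The MRPL40 call in MV-4-11 was lost without any 1 of its 4 libraries (adjusted p = 0.0737 to 0.255). At 24 h MRPS6 alone had opposite calls, against 8.13% of all genes tested, with -0.37 ± 0.11 in MOLM-13 (adjusted p = 0.0114) and 0.27 ± 0.11 in MV-4-11 (adjusted p = 0.0434), and each of these was lost with another setting (-0.24 with library size alone, adjusted p = 0.0931, and 0.23 with DESeq2, adjusted p = 0.0982). The MRPS6 call in MOLM-13 was also lost without BRM014 24 h replicate 2 or DMSO replicate 1 (adjusted p = 0.14 and 0.0723), and that in MV-4-11 without any 1 of its 4 libraries (adjusted p = 0.101 to 0.17).

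Humans have 3 genes descended from that of bacterial protein S18. MRPS18A had 63.1 and 64.2 CPM at 24 h, 42.3 and 41.9 CPM at 72 h, and 62.8 and 67.5 CPM with DMSO in MOLM-13. Over the lines it was at -0.04 ± 0.07 at 24 h (adjusted p = 0.717) and fell by 0.48 ± 0.07 at 72 h (adjusted p = 2.88e-06). MRPS18C was at -0.08 ± 0.12 at 24 h (adjusted p = 0.603) and fell by 0.43 ± 0.12 at 72 h (adjusted p = 0.00309), with 7.30 and 10.7 CPM in THP-1 at 72 h, against 18.4 and 16.5 CPM. MRPS18B was near the floor of detection in THP-1, at 0.0523 to 0.878 CPM over the 10 libraries of that line, where 3 reads are worth 0.139 to 0.189 CPM across the series. In MOLM-13 it had 1.12 and 0.911 CPM at 24 h, 0.939 and 1.70 CPM at 72 h, and 2.25 and 22.4 CPM with DMSO. Its log2 fold change there at 24 h (-3.73, adjusted p = 0.000332) rested on 1 DMSO library: without DMSO replicate 2 it was -1.25 (adjusted p = 0.142), and without DMSO replicate 1 it was -4.60. At 72 h it was -3.42 (adjusted p = 0.000327), -0.95 without DMSO replicate 2 (adjusted p = 0.227) and -4.29 without DMSO replicate 1. Over the lines MRPS18B did not pass the test at 24 h or 72 h (adjusted p = 0.0892 and 0.109).

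Many of these genes start next to another gene on the opposite strand. Within 1000 bases of their start, 31 members have such a head-to-head partner, and for 30 of them both genes could be tested. At 72 h the members of those pairs had a median log2 fold change of -0.60 and the partners -0.00. Of the 30 partners 13 were lower and 11 higher, while 30.4% of all genes tested were lower and 34.9% higher. MRPL46 and MRPS11 are partners of each other, so each is counted once as a member and once as a partner, with starts 34 bases apart. MRPL46 fell by 0.79 ± 0.08 at 72 h (adjusted p = 2.19e-08) while MRPS11 stood at 0.00. MRPL36 and NDUFS6, a subunit of respiratory complex I, also start 34 bases apart, and fell by 0.95 and 0.92. MRPL43 was at -0.07, and its partner TWNK, the helicase that unwinds mitochondrial DNA, fell by 2.09 ± 0.08. MRPL46 and MRPL36 were chosen for mention after their values were seen.

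Genes that act with the mitochondrial ribosome were followed as lists, in the mean of the lines. Among all genes tested, 27.1% fell and 28.9% rose at 24 h, and 30.4% fell and 34.9% rose at 72 h. Of 5 proteins of this ribosome whose symbols lie outside the pattern, 3 fell at 24 h and 4 at 72 h, the lowest being GADD45GIP1 (-1.17 ± 0.09), a large-subunit protein, and the highest CHCHD1 (-0.21 ± 0.09, adjusted p = 0.054). Of 25 ribosome assembly genes, 13 fell and 5 rose at 24 h, and 20 fell and 4 rose at 72 h, from RBFA (-1.49 ± 0.10), which matures the small-subunit RNA, to YBEY (0.83 ± 0.09), an endoribonuclease. Of 15 translation factors, 10 fell at each time while 1 rose at 24 h and 2 at 72 h, from the elongation factor TUFM (-1.32 ± 0.06) to the release factor MTRF1L (0.23 ± 0.05). Of 16 genes of mitochondrial RNA processing, 13 fell at each time while 3 rose at 24 h and 1 at 72 h, from the ribonuclease PNPT1 (-1.31 ± 0.07) to FASTK (0.49 ± 0.07). Of 10 genes for mitochondrial DNA and its transcription, 7 fell and 1 rose at 24 h, and 6 fell at 72 h, from TWNK to TEFM (0.16 ± 0.08, adjusted p = 0.0814). Of 9 regulators of nuclear genes for mitochondria, 4 fell and 1 rose at 24 h, and 5 fell and 2 rose at 72 h. The lowest was MYC (-3.45 ± 0.05 at 24 h and -5.04 ± 0.05 at 72 h). The highest at 72 h was PPARGC1A (1.57 ± 1.05, adjusted p = 0.205), which had only 0 to 2.36 CPM over the series.

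Beside the members, 74 of 77 cytosolic ribosomal protein genes fell at 24 h and 77 at 72 h over the lines together, with medians of -0.48 and -1.13. Of 75 nuclear genes for respiratory chain subunits, 34 fell and 6 rose at 24 h, and 47 fell and 5 rose at 72 h, with medians of -0.16 and -0.33. The shares over all genes tested were 27.1% lower and 28.9% higher at 24 h, and 30.4% and 34.9% at 72 h. By line the medians stood in different orders. In MOLM-13 at 72 h they were -0.996 for the members, -0.36 for the respiratory chain and -1.58 for cytosolic ribosomal proteins. In THP-1 at 24 h they were -0.41 for the members, -0.09 for the respiratory chain and -0.05 for cytosolic ribosomal proteins. Of these last, 6 fell and 1 rose, while 24.1% of all genes tested fell and 25.9% rose. The cytosolic ribosomal proteins summed to 47291.7 and 48251.9 CPM in MOLM-13 at 72 h, against 122615 and 131206 CPM with DMSO. In THP-1 at 24 h they summed to 62095.7 and 57326.2 CPM, against a DMSO mean of 60949 CPM, while the MRPL and MRPS sums lay under their DMSO levels.

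**Figure D5:**
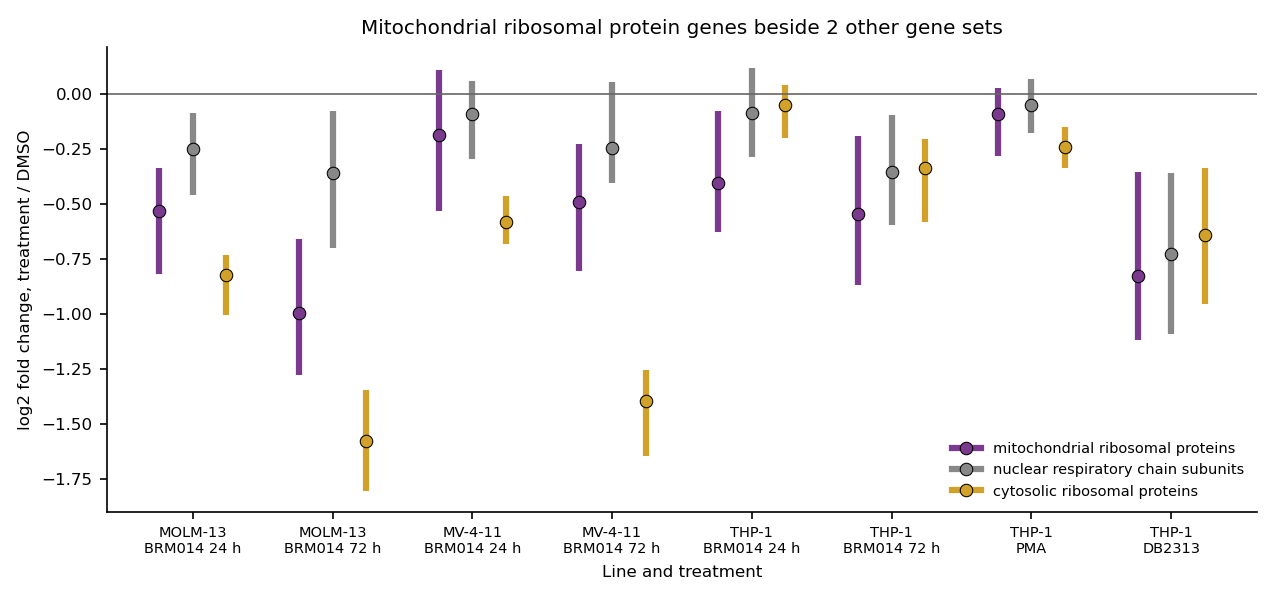
Median (point) and interquartile range (bar) of the log2 fold change against DMSO for the 77 members, 75 nuclear respiratory chain subunit genes and 77 cytosolic ribosomal protein genes, by line and treatment. The members' median is under that of the cytosolic ribosomal proteins in THP-1 with BRM014 or DB2313 and above it in MOLM-13 and MV-4-11.

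With PMA few members passed the test. Of 77, 16 were lower than with DMSO (20.8%, against 17.1% of all genes tested) and 1 was higher (1.30%, against 18.9%), with a median log2 fold change of -0.09. The lower share was thus close to that of all genes. The summed level was 3199 and 3937 CPM with PMA, against 4185 and 4156 CPM with DMSO, so that both PMA libraries were lower but differed by more from each other than replicate 2 did from DMSO. Without PMA replicate 1, 8 members were lower and 8 higher. Without PMA replicate 2, 40 were lower and none higher. Without DMSO replicate 1 or 2, 9 or 10 members were called.

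MRPL22, a core protein at the exit tunnel, fell with PMA by 0.58 ± 0.09 (adjusted p = 4.6e-05), with 20.6 and 21.9 CPM, against 34.3 and 33.3 CPM with DMSO. MRPL16, a core protein of the large subunit, fell by 0.47 ± 0.10 (adjusted p = 0.00123), with 43.2 and 50.4 CPM, against 66.8 and 70.7 CPM. Both calls held without each library in turn. MRPS2 had the lowest log2 fold change (-0.61 ± 0.17, adjusted p = 0.00816), with 13.9981 and 19.9 CPM, against 29.0037 and 26.1 CPM, and its call was lost without PMA replicate 1 (-0.36, adjusted p = 0.125) and without DMSO replicate 1 (-0.55, adjusted p = 0.0632). MRPS18C was at -0.46 ± 0.20 (adjusted p = 0.0774). The 1 member called higher, MRPL55 (0.42 ± 0.15, adjusted p = 0.033), had 33.2 and 47.5 CPM, against 31.4 and 32.6 CPM, and its call was lost without PMA replicate 2 (0.11, adjusted p = 0.584), DMSO replicate 1 (0.39, adjusted p = 0.144) or DMSO replicate 2 (0.46, adjusted p = 0.0937), and with library size alone (0.33, adjusted p = 0.0707). MRPS17 (0.33 ± 0.16, adjusted p = 0.127), MRPL34 (0.25 ± 0.15, adjusted p = 0.21) and MRPS18B (1.95 ± 1.25, adjusted p = 0.243) did not pass the test. MRPL17 had 38.97 and 55.4 CPM with PMA, on either side of its 47.3 and 48.0 CPM with DMSO.

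DB2313 gave the lowest sums of the series. Its libraries were registered apart from all others, and the labels do not say whether they were prepared together. In comparisons with DMSO or BRM014, effects of separate preparation thus cannot be told apart from those of DB2313. The members summed to 2743 and 2470 CPM with DB2313, against 4185 and 4156 CPM with DMSO in THP-1. Of 77 members 60 fell (77.9%, against 29.5% of all genes tested) and 2 rose (2.60%, against 35.9%), with a median of -0.83, beside 0.14 over all genes. By symbol 35 of 49 MRPL and 25 of 28 MRPS members fell. Of the respiratory chain subunit genes 60 of 75 fell and 3 rose (median -0.73), and of the cytosolic ribosomal protein genes 56 of 77 fell and 2 rose (median -0.64).

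MRPL3 had 50.7 and 53.1 CPM with DB2313, against 216 and 208 CPM with DMSO, and fell by 2.11 ± 0.07 (adjusted p = 3.37e-15) to 0.232 of that level. MRPS18C had 4.86 and 5.33 CPM, against 18.4 and 16.5 CPM, and fell by 1.84 ± 0.21 (adjusted p = 2.13e-07). MRPS28, a small-subunit protein, had 10.6 and 8.83 CPM, against 30.6 and 34.4 CPM, and fell by 1.82 ± 0.15 (adjusted p = 1.23e-09). In none of the 3 did the groups overlap. MRPS9, a core protein of the small subunit, fell by 1.72 ± 0.19 (adjusted p = 8.68e-08), with 6.03 and 4.67 CPM, against 17.1 and 16.4 CPM. The 2 members that rose were MRPS6 (0.32 ± 0.10, adjusted p = 0.0116), with 39.8 and 36.6 CPM, against 30.3 and 27.9 CPM, and MRPL10 (0.24 ± 0.09, adjusted p = 0.0241), with 38.4 and 36.8 CPM, against 30.2 CPM in both DMSO libraries. Both calls were lost with no filter on low counts (adjusted p = 0.0544 for MRPS6 and 0.118 for MRPL10), without DMSO replicate 2 (0.0996 and 0.0787) and without DB2313 replicate 1 (0.123 and 0.155), and that of MRPL10 without DMSO replicate 1 as well (0.0904). MRPL43 (0.22 ± 0.17, adjusted p = 0.266) and MRPS18B (1.11 ± 1.36, adjusted p = 0.484) did not pass the test.

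Set directly against DB2313, both given for 72 h, THP-1 cells with BRM014 had 32 of 77 members higher (41.6%, against 30.4% of all genes tested) and 10 lower (13.0%, against 30.9%), with a median of 0.18. The members summed to 2976 and 3138 CPM with BRM014 at 72 h and 2743 and 2470 CPM with DB2313, with no overlap. MRPS28 was higher with BRM014 by 1.39 ± 0.15 (adjusted p = 9.45e-08), at 26.5 and 24.6 CPM against 10.6 and 8.83 CPM. MRPL18 was higher by 1.14 ± 0.10 (adjusted p = 4.58e-09), at 176 and 186 CPM against 87.0 and 76.3 CPM, and MRPS14 by 1.12 ± 0.08 (adjusted p = 3.10e-10), at 85.2 and 85.3 CPM against 40.6 and 37.3 CPM. MRPL3 was higher by 0.73 ± 0.07 (adjusted p = 1.80e-08). MRPL55 was lower by 0.83 ± 0.15 (adjusted p = 9.60e-05), at 22.7 and 21.5 CPM against 42.02 and 36.1 CPM. MRPL17 did not pass this test (-0.25 ± 0.15, adjusted p = 0.169), with 16.3 and 17.3 CPM against 20.2 and 19.4 CPM. Without BRM014 72 h replicate 1 the split was 29 higher and 3 lower, and without DB2313 replicate 1 it was 36 higher and 3 lower.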

How the data were processed

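The deposited values were counts of reads per gene symbol, 1 file per library, with no normalization by the authors. Per the submitters' processing notes, the build was hg38 and the tools included HISAT2 (2.1.0), HTSeq and DESeq2. Their settings, the annotation and the strand of counting are not given in the sources used here. The 5 summary lines of each file were left out (no feature 12.0% to 19.2% of reads, ambiguous 3.04% to 3.82%). CPM were computed over gene rows from the deposited counts. Groups were taken from the sample titles.

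A single model over all 22 libraries was fitted with edgeR 4.0.16 in R 4.3.3: filterByExpr with a minimum count of 10 (16794 genes kept), TMM, 1 coefficient per group, the quasi-likelihood F test and Benjamini-Hochberg adjustment over all genes tested. Genes were called at an adjusted p under 0.05. Values are log2 fold changes ± SE from 2 libraries per group. The fit was tested on simulated data. Alternatives were DESeq2 1.42.0, library size alone, no filter, a fit without the PMA and DB2313 libraries, a replicate block and leaving out each library. Positions and exon lengths come from GENCODE 29 on GRCh38.

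Members named were the 6 lowest and 6 highest log2 fold changes at 72 h and 4 and 4 at 24 h averaged over lines, 4 and 4 with PMA and with DB2313, the 4 smallest p for the difference between lines at each time, the S18 genes and MRPL12, the 3 highest and 3 lowest CPM per kilobase, and those not tested. MRPL36, MRPL40, MRPL46 and MRPS25 were added after their values were seen. The members and gene lists were chosen with earlier results of these data known. Counting error alone at 0 counts allows up to 3 counts per library at 95% confidence, 0.139 to 0.189 CPM. The level of 1 marker gene is not reported here.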

Additional observations from a re-analysis of the deposited data

Results flagged for a closer look

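By an F test of the difference with edgeR, the change with BRM014 differed between the 3 lines for 34 members at 24 h. That is 44.2%, against 43.5% of all genes tested, so the 24 h share was that of genes in general. At 72 h it differed for 59 members (76.6%, against 52.9%). The smallest adjusted p-values at 24 h were 6.97e-05 for MRPL15, 0.000103 for MRPL49, 0.00014 for MRPL1 and 0.000184 for MRPL3. At 72 h they were 2.68e-08 for MRPS27, 1.12e-07 for MRPL3, 1.82e-06 for MRPL49 and 2.38e-06 for MRPL37. MRPL49 was higher than with DMSO in both MV-4-11 libraries at 72 h and lower in both THP-1 libraries.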

How the results depend on the processing

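The counts of members called stayed within 1.5 times their value with DESeq2, library size alone, no filter on low counts and without the PMA and DB2313 libraries. Leaving out 1 library moved 3 counts by more: MV-4-11 at 72 h against 24 h (18 to 23 calls in place of 39), THP-1 at 72 h against 24 h (14 to 19 in place of 23) and PMA (9 to 40 in place of 17), and the cause was not tested. Of single values, MRPL41 with PMA was at -0.53 (adjusted p = 0.0163) without PMA replicate 2, in place of 0.15, and at 0.61 without PMA replicate 1, and MRPS25 in MOLM-13 at 72 h was at 0.0006 with library size alone, in place of -0.19. Over the members named, 39 calls were lost and 80 gained under the settings that keep every library, and 189 lost and 31 gained under those that leave 1 out.

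The deviations of libraries with equal replicate numbers showed little correlation between groups, from -0.117 to 0.0871 over 55 pairs of groups. Low correlations cannot settle whether libraries of equal number were handled together, which the labels do not say. With the replicate number as a block, 57 members were lower and 6 higher at 24 h over the lines together, and 66 and 4 at 72 h. With PMA the split was 16 and 1, and with DB2313 60 and 2. These are the counts found without the block, which stand above beside the shares over all genes tested. MRPS18B in THP-1 lay near the level of 3 counts, and MRPS24 had at most 1 read per library.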
